A study of Mus musculus with 6 samples.

Results

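The tripartite motif (TRIM) genes were examined in sorted mouse thymic epithelial cells (TECs). All genes were taken whose annotated array symbol is *Trim* followed by a number and at most 1 letter, which gave 63 genes of the 30176 measured with a single symbol. The rule uses symbols and no measured value, though it was chosen with earlier results of these data known. None of the 63 had more than 1 probe set. RNA came from CD45-negative EpCAM+ TECs, sorted 7 days after tamoxifen (Tm) treatment, and was hybridised to 6 whole-transcriptome arrays. The 3 arrays labelled Δ*socs3* (replicates 1 to 3) carry the genotype *socs3*fl/fl act cre ER. The 3 arrays labelled WT carry *socs3*fl/fl alone, so both groups have loxP-flanked *Socs3* alleles and received Tm, and only the Δ*socs3* mice carry Cre. Cre is fused to an estrogen receptor domain and driven by the β-actin promoter, so *Socs3* is deleted in all tissues and not in TECs alone. Age and sex of the mice are not given in the labels. The study describes the samples of a group as independent and gives no number of mice behind each, so the p-values measure the spread between these samples.

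TRIM proteins take their name from 3 neighbouring domains, a RING finger, B-box zinc fingers and a coiled coil. The RING finger makes most of them E3 ubiquitin ligases, which attach ubiquitin to a chosen protein. The part behind the coiled coil, most often a PRY-SPRY domain, picks the target and is used to sort the family into classes. Many members act in antiviral defence and are induced by interferons, others regulate transcription or work in muscle, germ cells and neurons. SOCS3 is a substrate adaptor of another ubiquitin ligase and restrains cytokine receptors that signal through STAT3. Within the family, the study examined TRIM21. It found TRIM21 bound to SOCS3 overexpressed in OP9-DL1 cells, not in the sorted TECs of these arrays. *Trim21*-deficient mice had more thymocytes and a lower frequency of CD4-negative CD8-negative thymocytes. The study proposes that TRIM21 might reduce the stability of SOCS3 in TECs.

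*Socs3* itself had log2 signals of 8.55, 8.15 and 8.39 on the arrays labelled Δ*socs3* and of 8.0, 8.26 and 7.88 on the arrays labelled WT. The targeted gene was thus not lower on the arrays labelled Δ*socs3*, and differed by 0.32 (limma, standard error 0.16, adjusted p = 0.284, exact two-sided permutation p = 0.2, where 0.1 is the smallest p possible). After quantile normalization it was higher there by 0.56 (adjusted p = 0.0424), and with array weights by 0.46 (adjusted p = 0.0364). Its signal did not reach the 95th percentile of negative control probe sets, and whether its probes lie in the deleted part is not known. A positive difference means a higher mean on the arrays labelled Δ*socs3* than on those labelled WT. The study reports significantly lower *Socs3* mRNA in Δ*socs3* TECs than in controls, which the values with these labels do not show. *Aire* and other genes that the study names for these arrays also run opposite to the direction it gives. To which genotype a direction belongs therefore cannot be told.

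Replicate 2 of the arrays labelled Δ*socs3* was unlike the other 5 arrays. Across genes it correlated with the other arrays at 0.962 to 0.980, and the others with each other at 0.980 to 0.996, its poly-A spikes averaged 6.54 against 8.16 to 8.62, and its positive controls lay 3.07 log2 units above the negative controls against 3.60 to 3.91. All 8 epithelial markers, among them *Epcam*, *Krt5*, *Krt8* and *Foxn1*, were above the 95th percentile of the negative controls (10.22, called the negative control limit). From the list of 12 dendritic cell and macrophage markers, 3 were higher on the arrays labelled Δ*socs3*, with *Lyz2* by 1.83, *Mrc1* by 1.26 and *C1qb* by 0.69, none was lower, and the mean over the list was 7.43 to 7.59 on these arrays against 6.92 to 7.03 on the WT arrays. Only *Lyz2* of the 12 was above the negative control limit. Of 7 thymocyte, 5 B cell, 6 fibroblast and 5 endothelial markers, none passed (with unadjusted p, limma had 2 B cell markers and 1 fibroblast marker higher at the same threshold, and the methods' t-test had 2 B cell markers, 0 once adjusted). By limma at an unadjusted p, 5.86% of all genes were higher. Without replicate 2, 7 of the 12 dendritic cell and macrophage markers, the B cell marker *Blnk* (1.70, adjusted p = 0.00979) and the fibroblast marker *Pdgfrb* (0.66, adjusted p = 0.0179) were higher. Their part in the TRIM values was not tested. In RNA of a sorted population, fewer cells of a type and less RNA per cell cannot be told apart.

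Among the 63 TRIM genes, *Trim31* was higher and *Trim29* and *Trim47* were lower on the arrays labelled Δ*socs3* (limma, adjusted p under 0.05), and 60 did not pass. That is 1.59% of the family higher and 3.17% lower, beside 0.517% and 1.18% of all genes. Without adjustment, 2 TRIM genes were higher and 16 lower by limma (5.86% and 17.9% of all genes), and the methods' t-test gave 10 unadjusted (15.9%, against 19.3% of all genes) and 0 after adjustment (0.0133% of all genes). All 3 calls held without Δ*socs3* replicate 2, where 6 TRIM genes passed, *Trim31* and *Trim37* higher and *Trim29*, *Trim47*, *Trim68* and *Trim11* lower (5.15% of all genes higher and 6.05% lower). Leaving out any of the other 5 arrays, Δ*socs3* replicate 1 or 3 or WT replicate 1, 2 or 3, left 0 TRIM genes past the test. Of all 30176 genes, 1, 1, 0, 4 and 0 passed in these fits, in the same order.

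**Figure D1:**
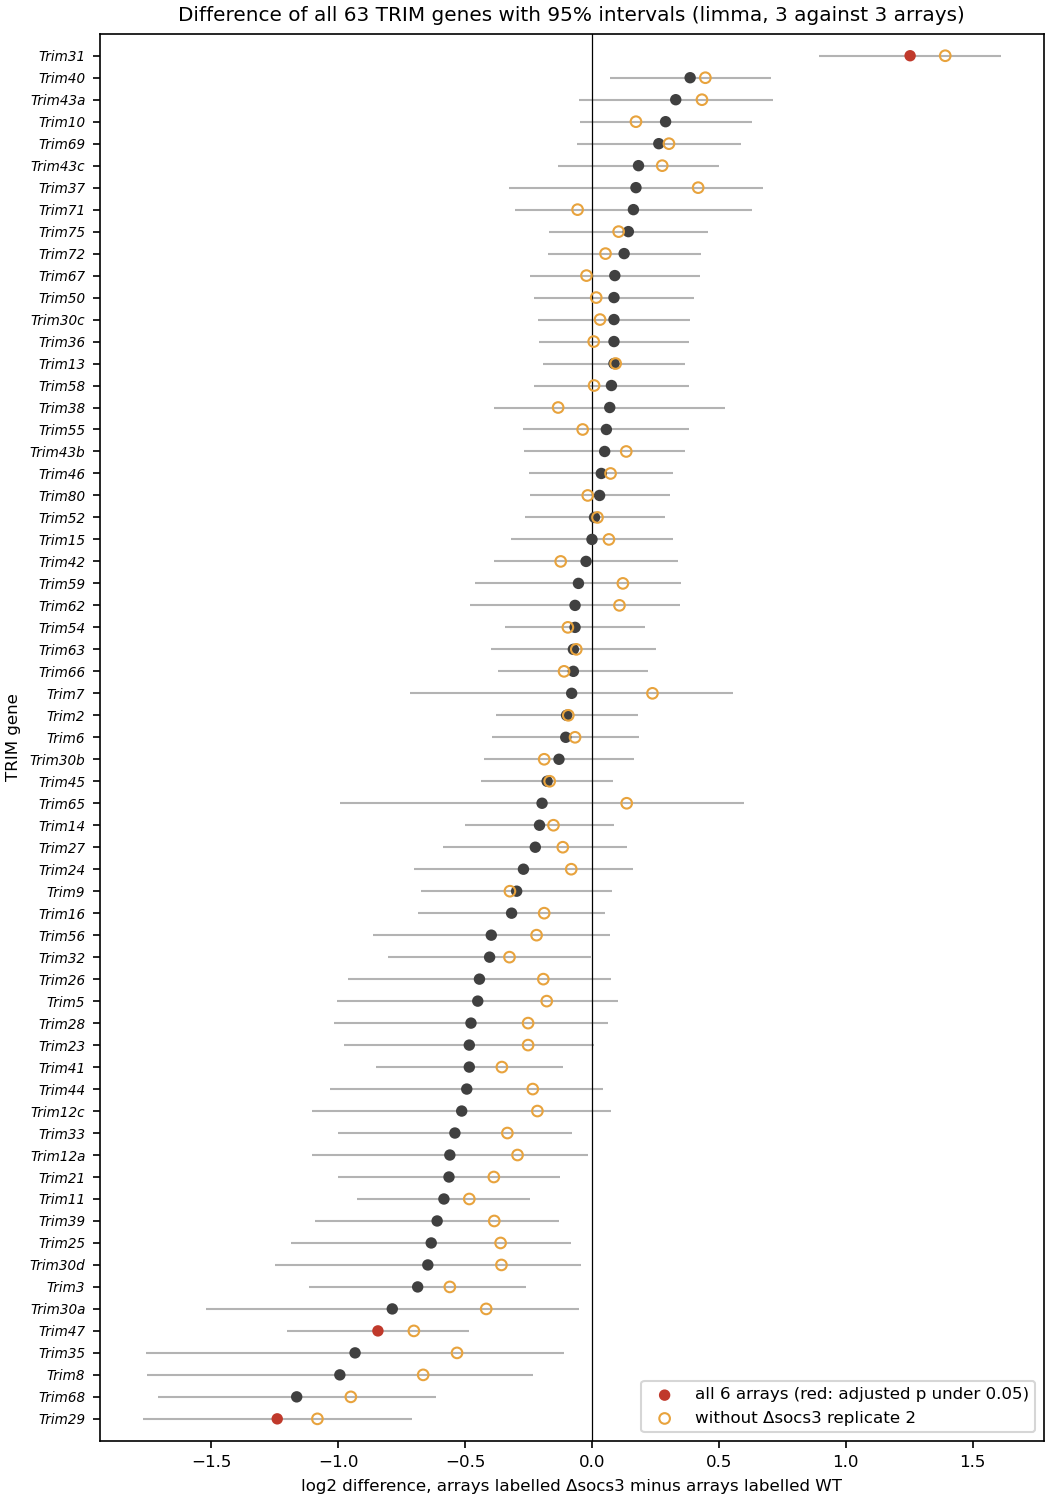
Log2 difference of each of the 63 TRIM genes (x axis, arrays labelled Δ*socs3* minus WT) with its 95% interval from limma, sorted by size, with red points for an adjusted p under 0.05 and open circles for the value without Δ*socs3* replicate 2. *Trim31* at 1.25 lies apart from the other genes at the higher end, and most open circles of the genes at the lower end lie closer to 0 than the filled points.

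In 23 TRIM genes (36.5%) all 3 arrays labelled Δ*socs3* were below all 3 WT arrays, which was also so in 26.5% of all genes. In *Trim31*, *Trim40* and *Trim10* (4.76%) they were all above, against 8.17% of all genes, and in 37 TRIM genes the groups overlapped. In each of the 23, Δ*socs3* replicate 2 was the lowest of the 6 arrays. Without that array 24 were separate in the lower direction (38.1%, against 33.8% of all genes) and 9 in the higher (14.3%, against 14.7%). The median difference of the family was -0.10, beside -0.05 over all genes. Without replicate 2 it was -0.11, and without the shift of array medians 0.03, beside 0.08 for all genes.

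Where a TRIM gene lay in this order depended on the brightness of its probe set. The signals of different probe sets do not rank the expression of their genes, but they show which values are near background. Of the 63 genes, 11 had a mean above the negative control limit, 24 lay between it and the median of the negative controls (6.77), and 28 were at or below that median. Of the 35 genes above the median control, 22 were separate in the lower direction (62.9%, against 43.1% of all such genes), and of the 11 above the limit 9 were (81.8%, against 47.6%). In the higher direction *Trim31* was the only 1 of the 35 with separate groups, and none of the 11 was, beside 5.15% of all genes above the limit. The median difference of the 11 was -0.54, against -0.34 over all genes above the limit, and it was -0.29 against -0.16 without replicate 2 and -0.27 against -0.11 after quantile normalization. In all 11 of them replicate 2 was the lowest array labelled Δ*socs3*. The 28 dim genes had a median of 0.06 and differences from -0.30 to 0.39.

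**Figure D2:**
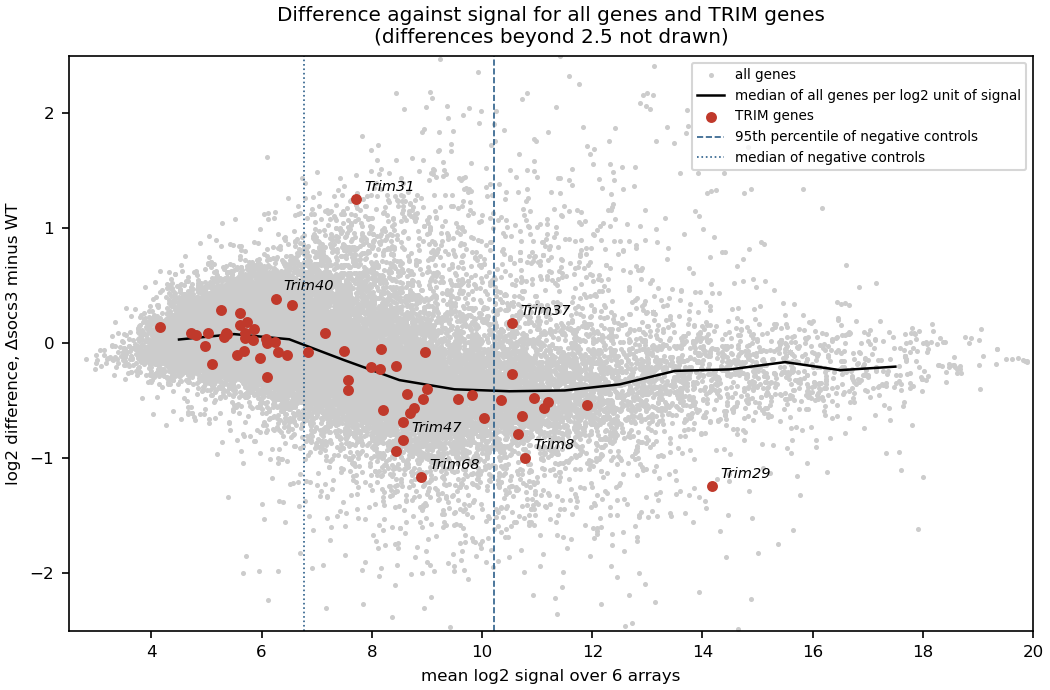
Log2 difference (y axis, arrays labelled Δ*socs3* minus WT) against the mean log2 signal over the 6 arrays (x axis) for all genes in grey and the 63 TRIM genes in red, with the median of all genes per unit of signal as a black line. The dashed and the dotted lines mark the 95th percentile (10.22) and the median (6.77) of the negative controls, and to the right of the dotted line all TRIM genes but *Trim31*, *Trim37* and *Trim13* lie below 0.

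*Trim31* encodes a RING ligase known from gut epithelium that acts on MAVS, the adaptor of viral RNA sensing, and on the inflammasome protein NLRP3. Its log2 signals were 8.51, 8.07 and 8.46 on the arrays labelled Δ*socs3* and 7.13, 7.03 and 7.12 on the WT arrays. The 3 WT values lay within a span narrower than that of the other group, and the groups were far apart. The difference was 1.25 (standard error 0.15, 95% interval 0.90 to 1.61, adjusted p = 0.029), a 2.38-fold higher signal, and it was 1.39 without replicate 2 (adjusted p = 0.00283) and 1.44 after quantile normalization. With 1 of the other 5 arrays left out it was 1.17 to 1.27 and did not pass (adjusted p = 0.0866 to 0.136). All 6 values were below the negative control limit, so the size of the difference is less certain than its order.

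*Trim31* lies in a row of 6 TRIM genes beside the class I genes of the mouse MHC on chromosome 17, in the order *Trim39*, *Trim26*, *Trim15*, *Trim10*, *Trim40* and *Trim31* (gene order of GRCm38.p6). The differences ran from -0.61 at *Trim39* and -0.44 at *Trim26* over 0.00 at *Trim15* and 0.29 at *Trim10* to 0.39 at *Trim40* and 1.25 at *Trim31*. *Trim40*, like *Trim31* a member without a C-terminal domain that is known from gut epithelium, had signals of 6.41, 6.33 and 6.61 on the arrays labelled Δ*socs3* and 6.04, 5.96 and 6.19 on the WT arrays. Its groups did not overlap, but the difference did not pass (standard error 0.13, adjusted p = 0.153, and 0.45 with adjusted p = 0.0565 without replicate 2). *Trim10*, which acts in red cell differentiation, had 5.33, 5.65 and 5.27 against 5.09, 5.07 and 5.22 (standard error 0.14, adjusted p = 0.271). Both of these genes had signals below the median of the negative controls. *Trim39*, a regulator of the cell cycle, and *Trim26*, a ligase of antiviral signaling, were separate in the other direction (adjusted p = 0.142 and 0.271).

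**Figure D3:**
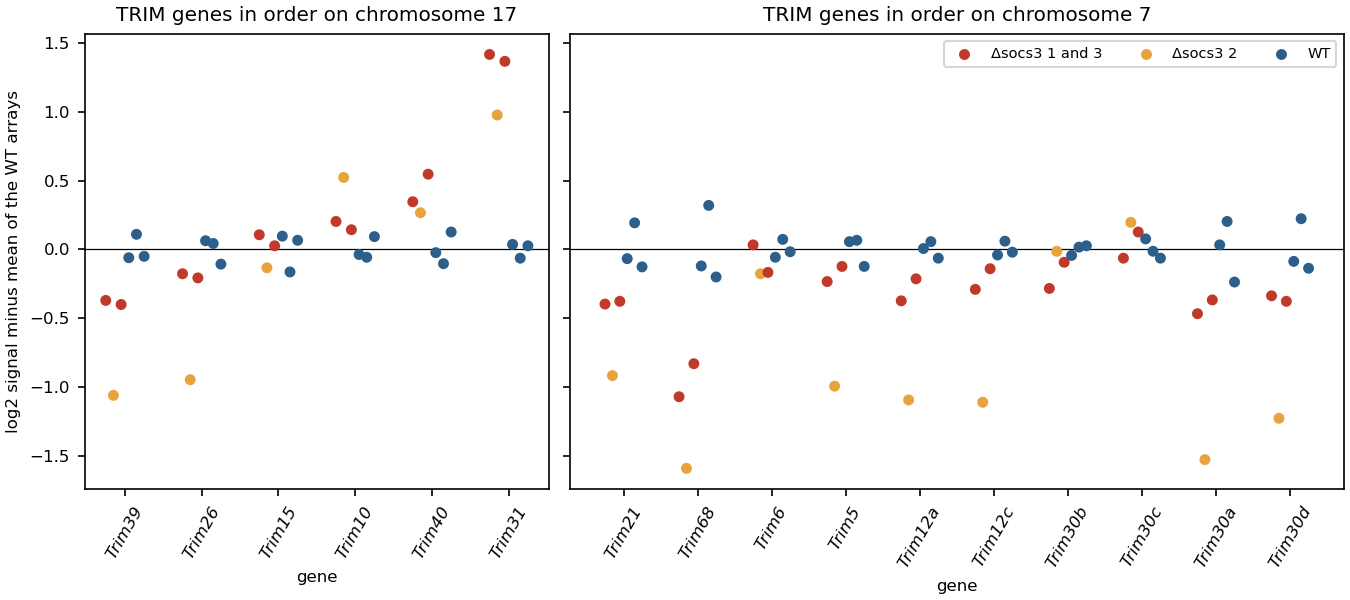
Log2 signal of each array minus the mean of the 3 WT arrays (y axis) for TRIM genes in their order on chromosome 17 (left) and for *Trim21*, *Trim68* and their neighbouring TRIM genes on chromosome 7 (right), with Δ*socs3* replicate 2 in orange. On chromosome 17 the arrays labelled Δ*socs3* go from below the WT arrays at *Trim39* to above them at *Trim31*, and on chromosome 7 replicate 2 is the lowest array in *Trim21*, *Trim68*, *Trim5*, *Trim12a*, *Trim12c*, *Trim30a* and *Trim30d*.

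The RefSeq promoter windows (GRCm38.p6, 250 bases before to 50 after a transcription start) held 49 of the 63 genes. They were searched on both strands for the STAT motif GAS (TTCNNNGAA) and for the interferon-stimulated response element ISRE (GAAA, any 2 bases, then GAAA), to which IRF factors bind. A match describes the letters and shows no binding. The GAS letters were in the windows of 6 TRIM genes (12.2%, against 9.55% of all genes), namely *Trim31*, *Trim15*, *Trim30c*, *Trim38*, *Trim45* and *Trim46*. *Trim31* is the only called gene among them, and the other 5 had differences from -0.18 to 0.09. The 250 bases before the *Trim31* start are shown because this gene had the largest difference in the higher direction, with the GAS letters in capitals 105 bases before the start.
Trim31: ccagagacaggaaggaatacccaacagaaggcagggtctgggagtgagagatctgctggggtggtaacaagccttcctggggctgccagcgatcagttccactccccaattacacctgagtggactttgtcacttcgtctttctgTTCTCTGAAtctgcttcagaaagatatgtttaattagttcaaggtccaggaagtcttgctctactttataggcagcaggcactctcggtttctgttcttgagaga
This stretch is chr17:36897880-36898129 on the plus strand.

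*Trim29*, which lacks a RING finger and is known from basal cells of layered epithelia, had the brightest probe set of the family. Its signals were 13.72, 13.24 and 13.71 on the arrays labelled Δ*socs3* and 14.60, 15.22 and 14.57 on the WT arrays. Every array was well above the negative control limit, and the lowest WT array exceeded the highest of the other group. The difference was -1.24 (standard error 0.23, 95% interval -1.77 to -0.71, adjusted p = 0.0494), and without replicate 2 it was -1.08 (adjusted p = 0.0226). With 1 of the other 5 arrays left out it was -1.35 to -1.03 and did not pass (adjusted p = 0.107 to 0.179). Of the 8 epithelial markers, 7 had differences below 0, and none of these passed. They were -0.15 for *Epcam*, -0.13 for *Krt8*, -0.40 for *Krt5*, -0.48 for *Cdh1*, -0.67 for *Krt18*, -0.90 for *Foxn1* and -1.52 for *Psmb11*. In 6 of the 8 the groups were separate in the lower direction, beside 47.6% of all genes above the negative control limit. *Aire* alone was higher, by 1.76 (adjusted p = 0.0386).

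*Trim47*, a PRY-SPRY ligase, had signals of 8.27, 7.87 and 8.32 on the arrays labelled Δ*socs3* and 8.96, 9.03 and 9.0 on the WT arrays. The WT arrays lay close together and above the others. The difference was -0.84 (standard error 0.15, 95% interval -1.20 to -0.48, adjusted p = 0.0494), at a signal below the negative control limit. This call was lost without the shift of medians (-0.71, adjusted p = 0.0524), with an intensity trend (adjusted p = 0.0594) and without any of the other 5 arrays (-0.93 to -0.83, adjusted p = 0.107 to 0.224). Its neighbour on chromosome 11, *Trim65*, known as a ligase of the RNA sensor MDA5, overlapped between the groups, with a difference of -0.20.

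The 4 genes with the next smallest p in the lower direction were *Trim68*, *Trim11*, *Trim3* and *Trim41*. *Trim68*, known as an autoantigen in Sjögren's syndrome, had signals of 8.40, 7.88 and 8.64 on the arrays labelled Δ*socs3* and 9.35, 9.79 and 9.27 on the WT arrays. Its difference of -1.16 (standard error 0.23, adjusted p = 0.0589) passed without replicate 2 (-0.95, adjusted p = 0.0216) and after quantile normalization (-0.90, adjusted p = 0.0287). *Trim11*, which promotes the removal of misfolded proteins, had 7.90, 7.72 and 8.14 against 8.53, 8.56 and 8.42. Here the groups were also separate, and the difference of -0.58 (standard error 0.15, adjusted p = 0.085) passed without replicate 2 (-0.48, adjusted p = 0.0411). *Trim3*, an NHL repeat member studied in neurons, had 8.41, 7.98 and 8.31 against 8.77, 9.21 and 8.78 (difference -0.69, adjusted p = 0.0932). *Trim41*, a ligase of protein kinase C, had 8.84, 8.43 and 8.79 against 9.10, 9.33 and 9.08 (difference -0.48, adjusted p = 0.135). All 4 genes had separate groups and signals below the negative control limit.

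**Figure D4:**
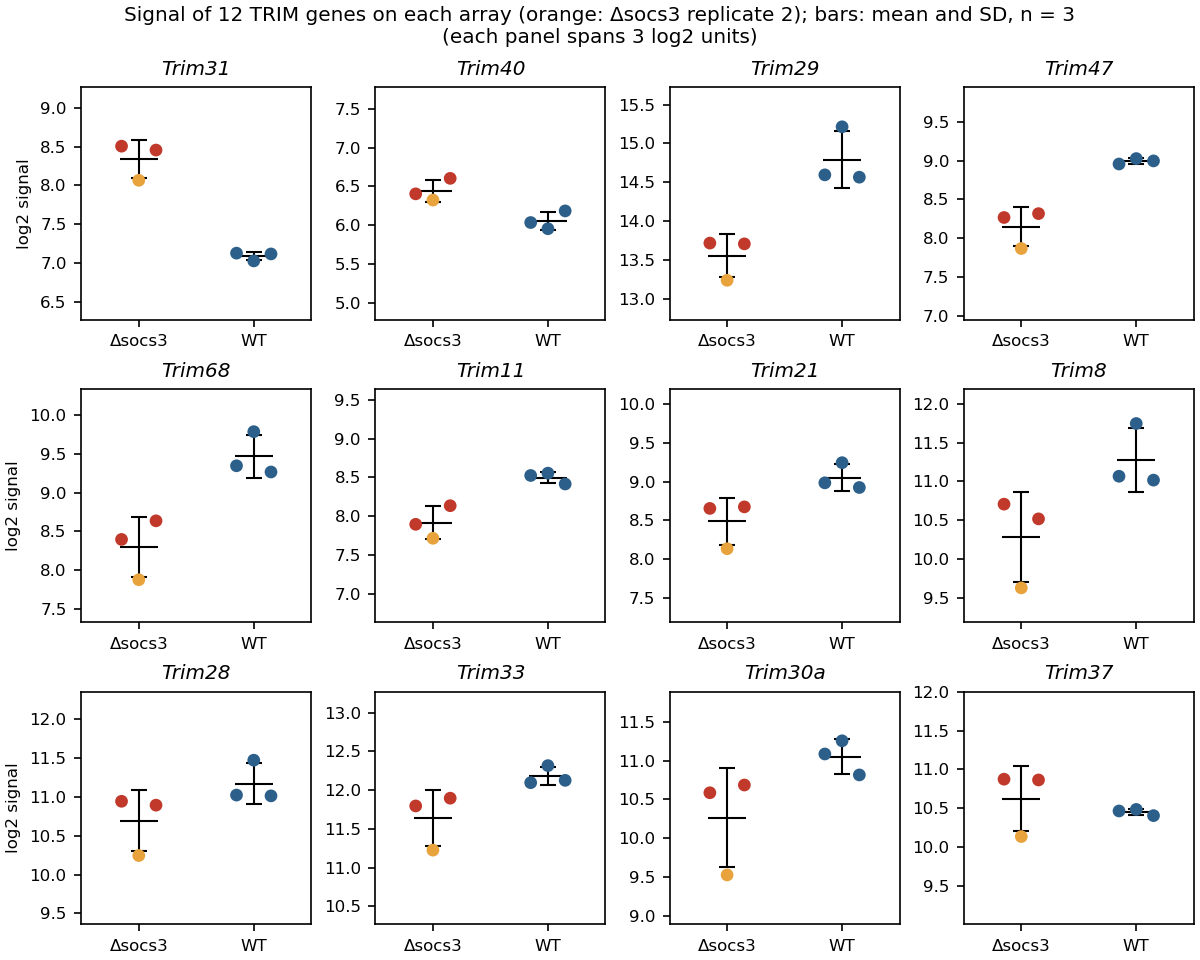
Log2 signal (y axis) of 12 TRIM genes on each of the 3 arrays labelled Δ*socs3* (red, replicate 2 in orange) and the 3 WT arrays (blue), with mean and SD (n = 3) in black. *Trim31* and *Trim40* are higher and *Trim29*, *Trim47*, *Trim68*, *Trim11*, *Trim21*, *Trim8*, *Trim28*, *Trim33* and *Trim30a* lower on every array labelled Δ*socs3*, while *Trim37* is split, with replicate 2 below and replicates 1 and 3 above all WT arrays.

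*Trim21* encodes a cytosolic antibody receptor and autoantigen (Ro52) that ubiquitinates antibody-coated virus and several IRF factors. Its signals were 8.66, 8.14 and 8.68 on the arrays labelled Δ*socs3* and 8.99, 9.25 and 8.93 on the WT arrays. The groups did not overlap, but the difference of -0.56 (standard error 0.19, 95% interval -1.0 to -0.13, adjusted p = 0.139) did not pass, and it was -0.39 (adjusted p = 0.0911) without replicate 2. All 6 values were below the negative control limit. Of 11 partners and substrates of TRIM21 none passed (unadjusted, 4 were lower by limma and 1 by the methods' t-test, which gave 0 once adjusted), with a median of -0.30. By limma at an unadjusted p, 17.9% of all genes were lower. The smallest p among the 11 were those of *Irf3* (-0.68, adjusted p = 0.105), *Ro60* (-0.68, adjusted p = 0.202) and the ubiquitin-conjugating enzyme gene *Ube2w* (-0.48). The sensor gene *Ddx41* (-0.65) followed. Without replicate 2, *Irf3* was lower (-0.49, adjusted p = 0.0423) and *Irf5* (0.56, adjusted p = 0.0186) and *Irf8* (0.56, adjusted p = 0.0158) were higher. *Irf5* and *Irf8* are also known from macrophages and dendritic cells. Of the 12 listed markers of these cells, 7 passed as higher and 0 as lower in the same fit. Whether such cells bear on the values of *Irf5* and *Irf8* was not tested.

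*Trim8*, a ligase that binds SOCS1 and the STAT3 inhibitor PIAS3, had signals of 10.71, 9.63 and 10.52 on the arrays labelled Δ*socs3* and 11.07, 11.75 and 11.02 on the WT arrays. The groups were separate, with a spread within each of them that was wide for this family (SD 0.58 and 0.41, n = 3). The difference of -0.99 (standard error 0.32, adjusted p = 0.135) did not pass, nor did -0.67 without replicate 2 (adjusted p = 0.111). Of 8 genes of PIAS and STAT3 regulation none passed (unadjusted, 4 were lower by limma and 1 by the methods' t-test, which gave 0 once adjusted). By limma at an unadjusted p, 17.9% of all genes were lower. *Pias2* differed by -0.73 (adjusted p = 0.1, and -0.53 with adjusted p = 0.0445 without replicate 2), *Pias1* by -0.62, *Pias3* by -0.63, *Stat3* by -0.38 and *Socs1* by -0.06.

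*Trim24*, *Trim28* and *Trim33* form the class with a PHD finger and a bromodomain, which regulates transcription. TRIM28 (KAP1) is the corepressor of KRAB zinc finger proteins that silences transposable elements, TRIM33 binds SMAD2, SMAD3 and SMAD4, and TRIM24 binds nuclear receptors. *Trim33* had signals of 11.80, 11.23 and 11.90 on the arrays labelled Δ*socs3* and 12.10, 12.32 and 12.13 on the WT arrays (difference -0.54, standard error 0.20, adjusted p = 0.164). *Trim28* had 10.95, 10.25 and 10.90 against 11.03, 11.48 and 11.02 (difference -0.48, standard error 0.23, adjusted p = 0.258). *Trim24* had 10.58, 10.03 and 10.61 against 10.62, 10.80 and 10.61 (difference -0.27, standard error 0.18, adjusted p = 0.42). In *Trim28* and *Trim33* the groups were separate, with replicates 1 and 3 close to the WT arrays in *Trim28*, and in *Trim24* the groups touched. Without replicate 2 the differences were -0.33 for *Trim33*, -0.25 for *Trim28* and -0.08 for *Trim24*, and that of *Trim24* turned to 0.03 after quantile normalization.

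Of 10 genes of the KRAB and TRIM28 repressor complex none passed (unadjusted, 5 were lower by limma and 2 by the methods' t-test, which gave 0 once adjusted). By limma at an unadjusted p, 17.9% of all genes were lower. The zinc finger gene *Zfp57*, which keeps imprints, differed by -0.74 (adjusted p = 0.0596, and -0.77 with adjusted p = 0.0225 without replicate 2). *Atf7ip* differed by -0.55, *Chd3* by -0.65 (adjusted p = 0.18) and the histone methyltransferase gene *Setdb1* by -0.62 (adjusted p = 0.181). Of 6 SMAD and retinoic acid receptor genes none passed (unadjusted, 3 were lower by limma and 3 by the methods' t-test, which gave 0 once adjusted). Among them *Smad3* differed by -0.85 (adjusted p = 0.0708, and -0.67 with adjusted p = 0.0259 without replicate 2), *Smad4* by -0.56 and *Rara* by -0.82. The medians of the 2 lists were -0.45 and -0.53, beside -0.05 over all genes and -0.34 over those above the negative control limit.

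The antiviral TRIM genes related to human TRIM5, a factor that blocks retroviral capsids, lie in a row on chromosome 7 that follows *Trim21* and *Trim68*. The measured ones are, in their order, *Trim6*, *Trim5*, *Trim12a*, *Trim12c*, *Trim30b*, *Trim30c*, *Trim30a* and *Trim30d*. Several are near-identical copies whose probes may read each other's RNA, so their values are uncertain as single genes. None of the 8 passed (unadjusted, 3 were lower by limma and 0 by the methods' t-test). By limma at an unadjusted p, 17.9% of all genes were lower, and 1591 of the 4446 genes above the negative control limit. *Trim12a* had 11.03, 10.31 and 11.19 on the arrays labelled Δ*socs3* and 11.41, 11.46 and 11.34 on the WT arrays (difference -0.56, standard error 0.23, adjusted p = 0.2). *Trim12c* had 11.16, 10.34 and 11.31 against 11.41, 11.51 and 11.43 (difference -0.51, standard error 0.25, adjusted p = 0.264). In both genes replicates 1 and 3 lay just below the WT arrays and replicate 2 lay further down. *Trim30a*, which restrains Toll-like receptor signaling in mice, differed by -0.79 (adjusted p = 0.187), *Trim30d* by -0.65 and *Trim5* by -0.45, of which *Trim5* overlapped. The dim *Trim6*, *Trim30b* and *Trim30c* overlapped with differences of -0.10, -0.13 and 0.09. The median of the row was -0.48, and -0.20 without replicate 2.

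The ISRE letters were found in the windows of 8 TRIM genes (16.3% of the 49, against 3.99% of all genes), *Trim21*, *Trim26*, *Trim2*, *Trim5*, *Trim12a*, *Trim12c*, *Trim30a* and *Trim30d*. No TRIM window held both motifs. Of these 8 genes, 6 were separate in the lower direction and *Trim5* and *Trim2* overlapped, with a median of -0.54 and a range from -0.79 to -0.10. *Trim5*, *Trim12a*, *Trim12c*, *Trim30a* and *Trim30d* lie in the row on chromosome 7, where several genes are near-identical copies. These genes are therefore not independent cases, which limits both the share and the median. Of the 41 genes with a window without these letters, 10 were separate in the lower and 3 in the higher direction, with a median of -0.07. Of the 14 genes without a window, 7 were separate in the lower direction, with a median of -0.26. Of all genes 26.5% were separate in that direction. The share was 43.1% above the median of the negative controls and 47.6% above the negative control limit. Only 5 of the 41 were above the negative control limit and 3 of the 8 were, so brightness moved with the motif, and its part was not tested. The ISRE windows, 10 bases on each side of the letters in capitals, are shown for *Trim21*, which the study names, and for copies on chromosome 7. Whether the letters bear on the values was not tested. Each is written on the strand that holds the letters.
Trim21: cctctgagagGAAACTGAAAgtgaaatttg
Trim5: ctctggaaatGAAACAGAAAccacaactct
Trim12a: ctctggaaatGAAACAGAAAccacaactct
Trim12c: agctggaaatGAAACAGAAAccacaactct
Trim30a: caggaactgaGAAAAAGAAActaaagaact
Trim30d: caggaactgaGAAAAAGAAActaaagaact
The *Trim21* window is chr7:102565450-102565479 on the minus strand. The others are on the plus strand, *Trim5* at chr7:104288136-104288165, *Trim12a* at chr7:104315466-104315495, *Trim12c* at chr7:104353359-104353388, *Trim30a* at chr7:104465210-104465239 and *Trim30d* at chr7:104507871-104507900. The windows of *Trim5* and *Trim12a* are identical, as are those shown for *Trim30a* and *Trim30d*. *Trim30a* has another match at chr7:104446104-104446133, not shown, whose window differs from these. *Trim21* has another, overlapping match in the window chr7:102565444-102565473.

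Of 24 interferon-stimulated genes outside the family none passed (unadjusted, limma gave 1 higher and 9 lower, and the methods' t-test 1 and 6, with 0 once adjusted). By limma at an unadjusted p, 5.86% of all genes were higher and 17.9% lower. The median of the 24 genes was -0.36, and -0.14 without replicate 2. *Iigp1*, an interferon-induced GTPase gene, differed by -0.98 (adjusted p = 0.0557), the oligoadenylate synthetase gene *Oas2* by -1.67 (adjusted p = 0.0659) and *Irf9* by -0.80 (adjusted p = 0.0801). These 3 and *Xaf1* were lower without replicate 2 (adjusted p = 0.0101 to 0.0458). *Usp18*, which removes ISG15 from proteins, differed by 0.43 with separate groups (adjusted p = 0.154). Of 13 genes of RNA and DNA sensing none passed (unadjusted, limma gave 1 higher and 3 lower, and the methods' t-test 0 and 3, with 0 once adjusted). They include *Irf3*, given above, *Ddx58*, the gene of the RNA sensor RIG-I, at -0.71 (adjusted p = 0.12) and *Zcchc3* at -0.50 (adjusted p = 0.13). Without replicate 2, *Irf3* and *Ddx58* (-0.48, adjusted p = 0.0498) were lower and the kinase gene *Ikbke*, at 0.68 with all arrays (adjusted p = 0.15), was higher (0.92, adjusted p = 0.0144). *Trim25*, whose protein ubiquitinates RIG-I, differed by -0.63 (standard error 0.23, adjusted p = 0.169) with separate groups. *Trim56*, *Trim14*, *Trim38* and *Trim27*, further members with roles in antiviral or NF-κB signaling, differed by -0.40, -0.21, 0.07 and -0.22, of which only *Trim14* had separate groups.

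*Trim37*, the only TRIM gene with a MATH domain, encodes a ligase of peroxisomes and centrosomes. Its signals were 10.88, 10.14 and 10.87 on the arrays labelled Δ*socs3* and 10.47, 10.49 and 10.41 on the WT arrays. Replicate 2 was thus below and the other 2 arrays above all WT arrays. The difference was 0.17 (standard error 0.21, adjusted p = 0.669), and 0.42 (adjusted p = 0.033) without replicate 2. It was 1 of 11 TRIM genes above the negative control limit and the only one of them with a difference above 0. *Trim7*, a ligase that binds glycogenin, showed the same split with 9.40, 8.29 and 9.09 against 9.04, 8.96 and 9.02 (difference -0.08, and 0.24 with adjusted p = 0.236 without replicate 2). *Trim59* (-0.05) also changed sign without that array, to 0.12, as did *Trim62* (-0.07), to 0.11, and *Trim65*, to 0.14. None of the 3 passed.

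None of the other members with a signal above the median of the negative controls passed. *Trim35*, a PRY-SPRY ligase, differed by -0.93 (standard error 0.35, adjusted p = 0.173, and -0.53 without replicate 2), with an SD of 0.70 (n = 3) on the arrays labelled Δ*socs3*. *Trim44*, which carries a deubiquitinase-like zinc finger in place of the RING, differed by -0.49, *Trim23*, which ends in an ARF GTPase domain, by -0.48, and *Trim32*, an NHL repeat member mutated in a human muscular dystrophy, by -0.40. These 4 genes had separate groups. *Trim16*, without a RING finger, overlapped at -0.32. *Trim13*, with a transmembrane end, differed by 0.09 and *Trim63* by -0.07.

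Further members known from muscle, neurons, germ cells or red cells had signals at or below the median of the negative controls, except *Trim63* just above it. The muscle RING finger genes *Trim54*, *Trim55* and *Trim63* and the membrane repair gene *Trim72* differed by -0.07, 0.06, -0.07 and 0.13, and all 4 overlapped between the groups. The neuronal *Trim9*, *Trim67*, *Trim46* and *Trim2* differed by -0.30, 0.09, 0.04 and -0.10 and also overlapped. *Trim43a*, *Trim43b* and *Trim43c*, near-identical copies known from early embryos, differed by 0.33, 0.05 and 0.18. *Trim43a* had 6.75, 6.52 and 6.91 on the arrays labelled Δ*socs3* and 6.55, 6.17 and 6.47 on the WT arrays (adjusted p = 0.267), and *Trim43c* had 5.83, 5.64 and 6.01 against 5.65, 5.61 and 5.67 (adjusted p = 0.46). *Trim69*, known from testis, had 5.84, 5.66 and 5.72 against 5.67, 5.34 and 5.42 (difference 0.26, adjusted p = 0.292). In each of these 3 genes a WT array lay within the range of the arrays labelled Δ*socs3*. *Trim36*, *Trim42* and *Trim66*, also known from testis, and the erythroid *Trim58* differed by 0.09, -0.02, -0.07 and 0.08. *Trim71*, a regulator of stem cells, had a difference of 0.16 that rested on replicate 2, at 6.13 beside 5.48 and 5.46, and was -0.06 without it. *Trim45*, with a filamin domain, differed by -0.18 with separate groups at a signal below the median control (adjusted p = 0.376). The remaining *Trim50*, *Trim52*, *Trim75* and *Trim80* overlapped, with differences of 0.09, 0.01, 0.14 and 0.03.

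Some TRIM proteins have genes with other symbols, which the choice by symbol left out. Of 5 such genes *Mid1* (TRIM18), a ligase on microtubules mutated in Opitz syndrome, was lower, and 4 did not pass. *Mid1* had signals of 12.16, 11.44 and 11.72 on the arrays labelled Δ*socs3* and 13.15, 13.12 and 13.14 on the WT arrays, all above the negative control limit. The difference was -1.36 (standard error 0.19, adjusted p = 0.0349), and -1.19 (adjusted p = 0.00596) without replicate 2. *Pml* (TRIM19), which builds the nuclear bodies named after it, had separate groups and differed by -0.75 (adjusted p = 0.183). *Bspry*, an epithelial B-box protein gene, was split like *Trim37*, with 11.57, 10.26 and 11.23 against 10.40, 10.41 and 10.32. Its difference was 0.64 (adjusted p = 0.267), and 1.02 (adjusted p = 0.00641) without replicate 2. *Mid2* and *Mefv* overlapped at -0.31 and 0.22.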

How the data were processed

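RNA of 3 Δ*socs3* and 3 WT samples was labelled with biotin and hybridised to 6 arrays. The authors deposited log2 signals for 72688 probe sets, 1 value on each array. Their notes name MAS5. Which further normalization steps the table includes, its genome build and the probe positions are not given in the sources used here. Arrays hold no read depth, and their number limits the precision.

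Each array was shifted to 1 median over genes. In the platform annotation 30638 of 65956 transcript clusters carried 1 symbol, 2176 several and 33142 none, and the brightest probe set per gene gave 30176 genes. The model was lmFit and eBayes of limma 3.58.1 under R 4.3.3, with Benjamini-Hochberg adjustment over all genes and a threshold of 0.05. Intervals are at 95%. The fit was tested on simulated data with known changes. The simulated noise was independent between genes and arrays, and no array was made unlike the others. The simulation therefore does not show how the fit behaves with an array such as Δ*socs3* replicate 2. Python 3.11.15 read the RefSeq promoter windows.

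Every TRIM gene may be named. *Socs3*, the called genes, *Trim21*, *Trim8*, *Trim24*, *Trim28*, *Trim33*, the 6 genes with the smallest p in each direction and the 6 brightest are given by array, other genes by their lists, with up to 3 per list by p. Genes beyond this rule were picked with their values in view. The members and lists were chosen with earlier results of these data known. Alternatives were no shift, quantile normalization, filters on dim genes, an intensity trend, array weights, a replicate block, leaving out each array, the methods' t-test and unadjusted p.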

Additional observations from a re-analysis of the deposited data

How the results depend on the processing

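Over the 19 TRIM genes chosen by rule to be given by array, of which the filters on dim genes left 7, the sign was kept under the alternatives that give a difference except for *Trim24*, which went from -0.27 to 0.0256 after quantile normalization. The count of 3 TRIM genes (1 higher, 2 lower) was 5 after quantile normalization (2 higher, 3 lower), 9 with array weights (3 and 6), whose estimate stopped before its tolerance was reached, 1 in the fits of genes above the negative control limit over all arrays or in a group (11 and 12 TRIM genes left), 10 with the methods' t-test (0 after adjustment) and 18 at an unadjusted p from limma. Over all genes, 512 passed (156 higher, 356 lower), and 1834 (1080 and 754), 4543 (1813 and 2730), 5816 (4 after adjustment) and 7161 passed after quantile normalization, with array weights, with the methods' t-test and unadjusted. Without the shift, 2 TRIM genes (1 and 1) and 722 genes (367 and 355) passed. With an intensity trend, 2 TRIM genes (1 and 1) and 584 genes (203 and 381) passed. Under the filters, 534 of 4446 genes above the negative control limit over all arrays passed, and 724 of 4969 above it in a group. Leaving out 1 array gave 0 to 6 TRIM genes and 0 to 3381 genes, the highest counts without Δ*socs3* replicate 2. Without any other array it gave 0 TRIM genes and 0 to 4 genes. The family median of -0.10 was 0.0333 without the shift and -0.54 and -0.55 under the filters. *Socs3* (0.32) passed after quantile normalization (0.56) and with array weights (0.46). With the replicate number as a block, 0 TRIM genes and 29 genes passed, *Trim31* having an adjusted p of 0.074. Same-numbered arrays had correlations of deviations of 0.07, -0.13 and -0.18. With 3 arrays a group these values cannot tell whether the numbers pair the samples. Averaging all probe sets of a gene gave 3 TRIM genes (1 higher, 2 lower) and 526 genes, and each probe set on its own was not run, as no TRIM gene has several. The cause of these changes was not tested. Signals below the negative control limit in 52 of the 63 genes limit the sizes of their differences.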

Other observations

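Probe sets annotated to several genes, at least 1 of them a TRIM gene, were left out of the comparison. The one shared by *Trim34a* and *Trim34b*, which belong to the row on chromosome 7, had signals of 10.56, 9.95 and 10.52 on the arrays labelled Δ*socs3* and 10.57, 10.64 and 10.52 on the WT arrays, a difference of -0.23. Replicate 2 was the lowest array there too, and the other 2 arrays lay within the range of the WT arrays, replicate 3 at its lower end. The probe set shared by *Trim60* and *Trim61* differed by 0.16, that of *Trim17* and *H2aw* by -0.17 and a second one of *Trim13*, shared with a predicted gene, by -0.02. No test was made on these.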
